A study of Mus musculus with 6 samples.

Results

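The enzymes that carry citrate to palmitate were followed as 10 genes of a table with 22095 gene rows. They are Slc25a1, Acly, Acss2, Acaca, Acacb, Fasn, Me1, Me2, Acsl4 and Acsl5, taken by their Ensembl gene rows in all 6 libraries and ordered by pathway step. The list was drawn up with it known that Fasn was higher with ponatinib while other lipid synthesis genes were lower. Their contrast between ponatinib and DMSO is therefore given as a description, with no p-value, and no conclusion rests on it.

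The libraries came from naive CD8 T cells, the killer lymphocytes, purified from spleens of wild type C57BL/6 mice. All cells had been activated for 48 h by antibodies to CD3 and CD28 with recombinant IL-2 in the medium. In 3 libraries the cells had also received 10 nM ponatinib, a multikinase inhibitor developed against BCR-ABL, and in 3 libraries its solvent DMSO. The labels do not say that replicates were separate mice or cultures, nor give the animals' age, so the spread between libraries may be technical.

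A dividing T cell builds membranes, and much of the fatty acid in them is made in the cytosol from citrate that mitochondria export. SLC25A1 carries citrate out of the mitochondrion, and ACLY cleaves it to acetyl-CoA and oxaloacetate, while ACSS2 makes acetyl-CoA from acetate. ACACA and ACACB carboxylate acetyl-CoA to malonyl-CoA, and FASN joins acetyl and malonyl units into palmitate with NADPH, part of which malic enzymes supply from malate. Acyl-CoA synthetases such as ACSL4 and ACSL5 then couple fatty acids to coenzyme A. In liver and fat many of these genes are known targets of the transcription factor SREBP1.

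With ponatinib, the citrate carrier Slc25a1 was 1.91-fold lower in mean TPM (transcript abundance relative to the library total and corrected for length) and the acetate enzyme Acss2 1.61-fold lower. Acly and the mitochondrial malic enzyme Me2 were lower by 1.13-fold and 1.14-fold. Fasn was higher, at 171 ± 10.3 TPM with ponatinib and 123 ± 17.6 TPM with DMSO (SD, n = 3 each). Acaca, Acsl4 and Acsl5 had overlapping groups, and Acacb and Me1 stayed under 0.2 TPM in every library.

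Calls come from a limma fit over all gene rows with a mean of at least 1 TPM, at a Benjamini-Hochberg adjusted p under 0.05. Of the 10 enzymes, 8 reached that minimum, and the fit called 5 of the 8, with 1 higher and 4 lower. Among all 10039 kept gene rows it called 33.4%, with 23.9% higher and 9.54% lower. Of its calls 71.5% were higher, a share that fell to 49.1% under medians of ratios and 54.3% after quantile normalization. The groups did not overlap in the same 5 enzymes, against 49.4% of all kept rows. The median log2 fold change was -0.15 over the 8 enzymes and 0.09 over all kept rows. With bulk RNA, fewer cells of a type and less RNA per cell cannot be told apart.

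**Figure D1:**
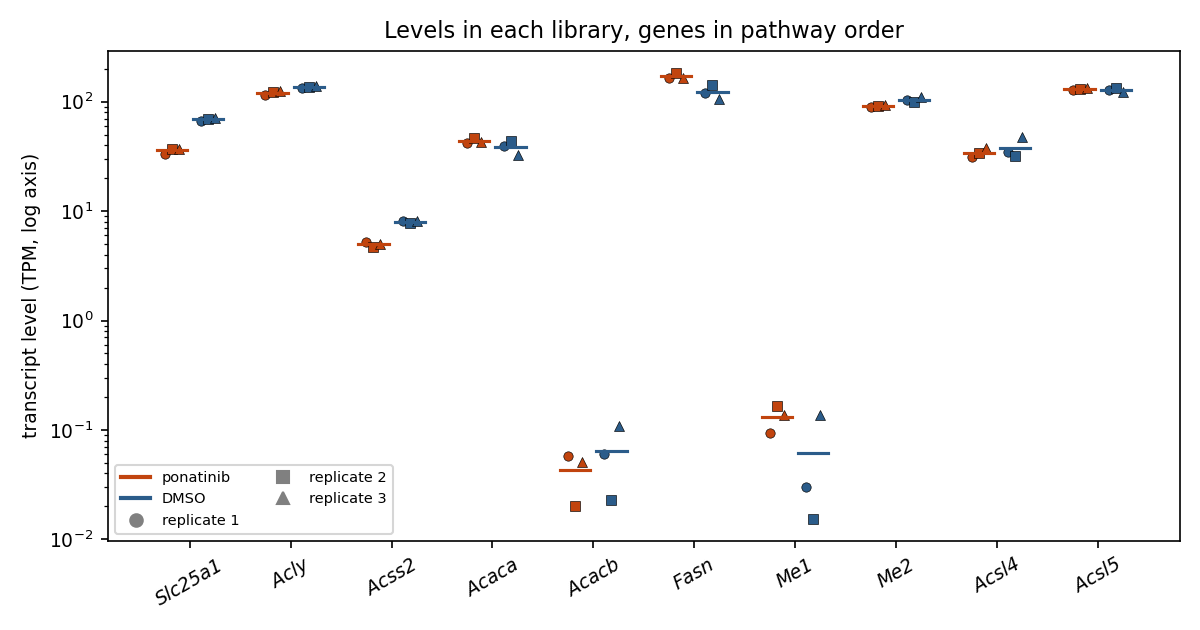
Transcript levels of the 10 genes in TPM on a log axis, with each library as a symbol and each group mean as a line, ponatinib left of DMSO. Slc25a1 and Acss2 lie lower and Fasn higher with ponatinib without overlap, and Acacb and Me1 lie under 0.2 TPM.

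The libraries were alike in the number of genes reached, but differed in mitochondrial share and in several marker sums. Between 9912 and 10095 gene rows per library reached 1 TPM, and pairs of libraries had Spearman correlations across kept genes of 0.995 to 0.997 (ponatinib pairs), 0.988 to 0.996 (DMSO pairs) and 0.965 to 0.980 (mixed pairs). Genes are not independent replicates in such values. Mitochondrially encoded genes held 7.16% to 8.19% of TPM with ponatinib, against 4.78% in DMSO replicate 3 and 9.76% and 10.7% in DMSO replicates 1 and 2. CD8 T cell markers (Cd3d, Cd3e, Cd3g, Cd8a, Cd8b1 and Trac) summed to 1743 to 1990 TPM with ponatinib and 1494 to 1524 TPM with DMSO. The 4 CD4 T cell markers summed to 16.4 to 19.7 TPM with ponatinib and 5.21 to 9.53 TPM with DMSO, with Cd4, Cd40lg and Foxp3 called higher and Zbtb7b, at 1.03 TPM with ponatinib and 2.86 TPM with DMSO, called lower. The 6 myeloid markers summed to 4.82 to 6.82 TPM with ponatinib and 0.965 to 1.14 TPM with DMSO, and the 4 erythroid and platelet markers to 2.11 to 4.71 and 0.366 to 1.16 TPM. The 4 NK cell markers, nearly all Eomes, summed to 33.7 to 42.4 TPM with ponatinib and 18.2 to 30.4 TPM with DMSO, and the 6 B cell markers, mostly Ighm, to 152 to 174 and 137 to 166 TPM. Of 5 adipocyte markers, Cidec, Lep and Fabp4 were listed at 0 in all 6 libraries and the sum was at most 0.0879 TPM. The part of these differences in the enzyme values was not tested.

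The stretches just upstream of the transcription start are shown for the enzyme gene that was higher and for 3 that were lower. They were picked with these directions known, and any part of their letters in the changes was not tested. Each run holds the 250 bases before the RefSeq start on GRCm38.p6, read 5′ to 3′ on the gene's strand, and the capitals mark CCAAT (the NF-Y box), GGGCGG (the Sp1 box), CACGTG (the E-box) or their reverse complements. Fasn is at chr11:120824548-120824797 on the minus strand, Acly at chr11:100528001-100528250 on the minus strand, Slc25a1 at chr16:17928220-17928469 on the minus strand and Acss2 at chr2:155517793-155518042 on the plus strand.
Fasn: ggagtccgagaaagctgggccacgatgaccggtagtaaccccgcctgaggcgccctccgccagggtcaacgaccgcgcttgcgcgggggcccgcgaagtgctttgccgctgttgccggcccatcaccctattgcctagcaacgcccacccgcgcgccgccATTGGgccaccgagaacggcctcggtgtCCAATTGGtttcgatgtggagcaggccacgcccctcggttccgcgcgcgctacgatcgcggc
Acly: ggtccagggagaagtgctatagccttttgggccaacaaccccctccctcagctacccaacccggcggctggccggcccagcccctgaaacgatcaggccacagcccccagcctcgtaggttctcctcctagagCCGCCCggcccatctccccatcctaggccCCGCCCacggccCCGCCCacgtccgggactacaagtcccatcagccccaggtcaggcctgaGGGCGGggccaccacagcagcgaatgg
Slc25a1: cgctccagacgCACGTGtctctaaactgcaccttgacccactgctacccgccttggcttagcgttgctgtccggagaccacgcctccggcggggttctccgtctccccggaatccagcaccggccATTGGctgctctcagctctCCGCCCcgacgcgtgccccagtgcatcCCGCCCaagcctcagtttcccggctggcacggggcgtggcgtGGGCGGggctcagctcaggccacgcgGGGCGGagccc
Acss2: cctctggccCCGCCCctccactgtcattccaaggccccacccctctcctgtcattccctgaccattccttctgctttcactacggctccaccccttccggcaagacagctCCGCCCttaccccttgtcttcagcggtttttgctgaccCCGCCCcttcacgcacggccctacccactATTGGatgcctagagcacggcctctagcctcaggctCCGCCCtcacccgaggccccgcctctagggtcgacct

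The Fasn window held 3 CCAAT matches, of which the pair from -62 to -58 and from -59 to -55 shares bases on opposite strands, and 0 GGGCGG matches. The Acly, Slc25a1 and Acss2 windows held 4 GGGCGG matches each, and Slc25a1 and Acss2 also 1 CCAAT match each. GGGCGG was not particular to the genes that were lower. Acsl4, which was not called, held 2 matches and 1 window of Me1, which was under the minimum, held 3, while Acaca, Acacb and Acsl5 held 0. Slc25a1 held the only CACGTG match among the windows of these genes, from -239 to -234. Over all 32851 RefSeq windows of that length, 33.8% held CCAAT, 32.7% GGGCGG and 6.02% CACGTG on either strand. A sterol regulatory element written as TCACNCCAC, with any base at N, was in 1.05% of all windows and in 0 of the 10 windows of these enzymes. At so low a share, 0 of 10 windows cannot show that these genes lack such elements. Windows were found for 9 of the 10 genes, with 2 for Me1, and Me2 was not analysed here. Those of Acaca, Acacb and Acsl5 and 1 of those of Me1 lie wholly inside the genes as GENCODE gives them, so they cover an internal start, and those of Acss2 and the other of Me1 lie partly inside. A match describes letters and shows no binding.

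Slc25a1 (ENSMUSG00000003528, minus strand of chromosome 16, 17925223 to 17928219 on GRCm38) encodes the mitochondrial citrate carrier. It stood at 33.6, 37.3 and 37.3 TPM in ponatinib libraries, against 66.9, 69.6 and 70.6 TPM in DMSO libraries. The groups were far apart relative to their spread, and the log2 fold change on log2(TPM + 1), the scale of all those given here, was -0.92 (SE 0.06). It was lower than those of all but 1.90% of kept rows, and it was called lower under all 14 alternative settings.

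Acly (ENSMUSG00000020917, minus strand of chromosome 11, 100476353 to 100528000), the ATP citrate lyase, was at 116, 123 and 124 TPM in ponatinib libraries and at 133, 136 and 140 TPM in DMSO libraries. Every ponatinib library lay under every DMSO library, by little. The log2 fold change was -0.17 (SE 0.05), called lower, but the call was lost without DMSO replicate 1 or 2 (-0.19 and -0.18) and without ponatinib replicate 1, 2 or 3 (-0.14, -0.18 and -0.19). Under medians of ratios it was -0.27 and called.

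Acss2 (ENSMUSG00000027605, plus strand of chromosome 2, 155517948 to 155585724), which makes acetyl-CoA from acetate, was the least abundant of the 8 kept enzymes. Its levels were 5.23, 4.71 and 5.02 TPM in ponatinib libraries, against 8.14, 7.76 and 8.13 TPM in DMSO libraries, without overlap. The log2 fold change was -0.59 (SE 0.08) and was called under all 13 alternatives that kept the gene. Of the genes with rows in the table, Ggt7 (up to 155518237) and Gss (from 155563181) overlap the ends of Acss2 on the other strand. Without knowing whether strand was counted, reads in the shared stretches cannot be told apart. Ggt7 fell to 2.04 TPM with ponatinib, against 3.66 TPM with DMSO (limma log2 fold change -0.62, SE 0.14, adjusted p = 0.0125), and Gss was at 17.5 and 18.8 TPM (-0.10, adjusted p = 0.359).

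Acaca (ENSMUSG00000020532, plus strand of chromosome 11, 84129672 to 84401651), the cytosolic acetyl-CoA carboxylase, was at 42.0, 46.9 and 42.8 TPM in ponatinib libraries and 39.3, 43.6 and 32.5 TPM in DMSO libraries. The groups overlapped, since DMSO replicate 2 lay above ponatinib replicates 1 and 3. The log2 fold change was 0.19 (SE 0.11), not called under any setting, and 0.08 without DMSO replicate 3. Acacb (ENSMUSG00000042010, chromosome 5), the isozyme known for its place at the mitochondrial surface, was at 0.0202 to 0.0581 TPM with ponatinib and 0.0230 to 0.109 TPM with DMSO, under the minimum, so nearly all carboxylase transcript was Acaca.

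The table also held rows by transcript, nearly all for transcripts outside the basic annotation set, and for Acaca they were large. Its 5 transcript rows added up to 48.9%, 48.9% and 51.4% of the summed gene and transcript TPM in ponatinib libraries and 54.5%, 49.6% and 54.2% in DMSO libraries. The transcript Acaca-206, of 431 bases, held 21.4 ± 2.94 TPM with ponatinib and 21.9 ± 3.49 TPM with DMSO. Acaca-208, of 684 bases, held 15.4 ± 2.13 and 13.0 ± 1.55 TPM, and Acaca-203, of 1058 bases, 6.55 ± 2.09 and 7.67 ± 0.426 TPM (SD, n = 3 each). These models are short next to the gene and lie within it, so how reads were split between the rows is uncertain. With transcript rows added, Acaca totalled 87.3 ± 4.81 TPM with ponatinib and 81.2 ± 8.99 TPM with DMSO, with overlapping groups and a log2 fold change of 0.11. In the other 9 genes the transcript rows held at most 1.64% in any library, apart from 10.4% for Acss2 and 53.4% for the very low Acacb, each in DMSO replicate 3.

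**Figure D2:**
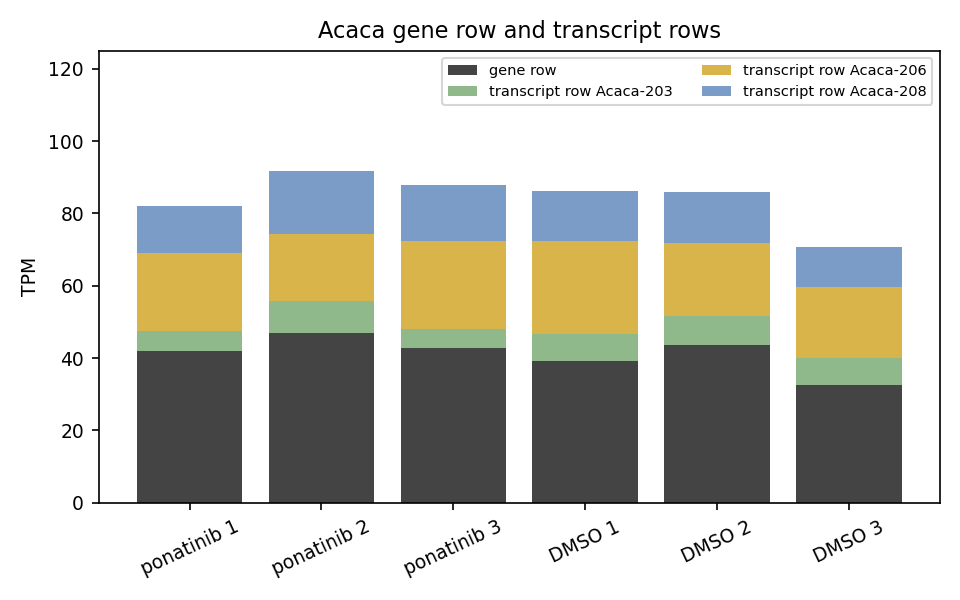
Stacked TPM of the Acaca gene row and of its 3 transcript rows with a mean above 1 TPM, in the 3 ponatinib and 3 DMSO libraries. The transcript rows make up about as much as the gene row in each library, and DMSO replicate 3 has the lowest stack.

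Fasn (ENSMUSG00000025153, minus strand of chromosome 11, 120805846 to 120824547) encodes fatty acid synthase, which makes palmitate. It was at 164, 183 and 165 TPM in ponatinib libraries and at 121, 141 and 106 TPM in DMSO libraries. All ponatinib libraries lay above all DMSO libraries, although DMSO replicates 2 and 3 were farther apart than DMSO replicate 2 and ponatinib replicate 1. The ratio of means was 1.39 and the log2 fold change 0.48 (SE 0.10), higher than those of 92.8% of kept rows. It was called higher under 13 of 14 alternatives, with values from 0.38 without DMSO replicate 3 to 0.59 without DMSO replicate 2. With medians of ratios as the scaling it was 0.39 and not called.

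Within groups, Fasn and Acaca deviated alike: on the log2 scale Fasn lay 0.21 above its DMSO mean in replicate 2 and Acaca 0.19 above, and in DMSO replicate 3 they lay at -0.20 and -0.23. Acsl4 went the other way there, at -0.22 in DMSO replicate 2 and 0.33 in DMSO replicate 3. With ponatinib, Fasn and Acaca were also both highest in replicate 2, at 0.10 and 0.09.

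Around Fasn, 10 kept genes lie within 150000 bases on chromosome 11, and they went different ways. The nearest, Ccdc57, 1982 bases upstream of Fasn, was at 1.10 TPM with ponatinib and 1.17 TPM with DMSO, and Dus1l, 9443 bases downstream, at 49.8 and 51.3 TPM, neither called (limma adjusted p = 0.811 and 0.693). Gps1, 16744 bases away, rose to 87.1 TPM with ponatinib, against 75.6 TPM with DMSO (limma adjusted p = 0.0215), and Aspscr1, 96399 bases away, rose by 0.36 on the log2 scale (limma adjusted p = 0.00969). Slc16a3, a lactate exporter gene 123933 bases upstream of Fasn, fell by 3.70 (limma adjusted p = 8.76e-06). These neighbours were chosen by position, after values of Fasn and Slc16a3 were known, so the p-value of Slc16a3 gives no independent support.

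Malic enzymes turn malate to pyruvate and yield NADPH or NADH. Me1 (ENSMUSG00000032418, chromosome 9), the cytosolic NADP enzyme of the citrate and pyruvate cycle, was at 0.0944, 0.164 and 0.138 TPM in ponatinib libraries and at 0.0298, 0.0155 and 0.137 TPM in DMSO libraries, with overlap and under the minimum. Me2 (ENSMUSG00000024556, chromosome 18), the mitochondrial NAD enzyme, was at 89.6, 90.6 and 92.9 TPM in ponatinib libraries and 103, 99.8 and 109 TPM in DMSO libraries, without overlap. Its log2 fold change was -0.19 (SE 0.05), called lower, and the call was lost without DMSO replicate 1 (-0.20) and without ponatinib replicate 1, 2 or 3 (-0.18, -0.19 and -0.21).

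Acsl4 (ENSMUSG00000031278, X chromosome), an acyl-CoA synthetase known to prefer arachidonate, was at 31.3, 33.8 and 37.6 TPM in ponatinib libraries and 34.4, 31.9 and 47.3 TPM in DMSO libraries. The high library was DMSO replicate 3, and the log2 fold change of -0.12 (SE 0.14) became 0.04 without it. Acsl5 (ENSMUSG00000024981, plus strand of chromosome 19), a synthetase known from mitochondria and endoplasmic reticulum, was among the steadiest of the 8, at 127, 130 and 132 TPM in ponatinib libraries and 127, 133 and 123 TPM in DMSO libraries. Its log2 fold change was 0.02 (SE 0.05), with either sign over the alternatives, down to -0.07 with medians of ratios. Zdhhc6, which overlaps it on the other strand, was at 41.9 TPM with ponatinib and 42.6 TPM with DMSO.

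**Figure D3:**
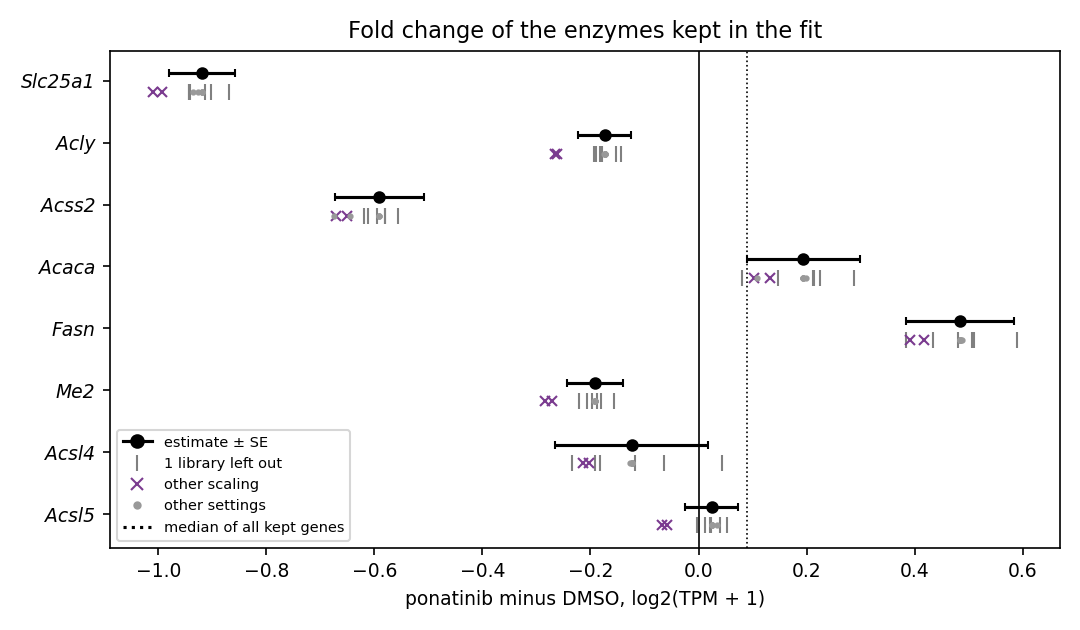
Log2 fold changes of the 8 kept enzymes on log2(TPM + 1), ponatinib minus DMSO, with the estimate and its SE in black and alternative settings beneath each. Fasn stays above 0 and Slc25a1, Acss2, Acly and Me2 below 0 in all of them, and the dotted line is the median of all kept genes at 0.09.

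Ratios of enzymes inside a library do not depend on the library's scaling. Fasn over Acly was 1.42, 1.49 and 1.33 in ponatinib libraries and 0.907, 1.04 and 0.753 in DMSO libraries. Acly over Slc25a1 was 3.45, 3.29 and 3.34 in ponatinib libraries, against 2.00, 1.95 and 1.99 in DMSO libraries, a wide gap beside the spread. Fasn over Slc25a1 was 4.74 ± 0.268 with ponatinib and 1.78 ± 0.265 with DMSO (SD, n = 3 each). The list was drawn up with Fasn known to be higher and other lipid synthesis genes lower. Higher ratios of Fasn to genes that were lower follow from that choice, so the ratios here and below are descriptions only.

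Fasn over Acaca was the tightest ratio involving Fasn, at 3.92, 3.90 and 3.87 in ponatinib libraries and 3.08, 3.23 and 3.26 in DMSO libraries. The groups were apart by more than the spread within either. This ratio uses the Acaca gene row only, so its level and spread depend on the uncertain split of reads between gene and transcript rows. Acly over Me2 was at 1.29 to 1.35 with ponatinib and 1.28 to 1.36 with DMSO, so these genes kept their proportion in all 6 libraries. Acly over Acss2 was 24.3 ± 1.97 with ponatinib and 17.0 ± 0.576 with DMSO, and Acsl5 over Acsl4 overlapped, at 3.81 ± 0.276 and 3.49 ± 0.805.

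Fasn was also set against Elovl6 and Scd1, genes of later steps, and against the regulator gene Srebf1. Elovl6 was picked with its values known, and the others with earlier results of these data known. Fasn over Elovl6, which elongates palmitate, was 20.3, 20.9 and 18.8 in ponatinib libraries and 9.01, 10.8 and 8.31 in DMSO libraries, and Fasn over Scd1, a desaturase, was 158 ± 63.8 and 2.91 ± 0.644. Fasn over Srebf1, which encodes SREBP1, was 6.54, 6.47 and 6.62 in ponatinib libraries and 3.10, 3.52 and 2.55 in DMSO libraries.

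**Figure D4:**
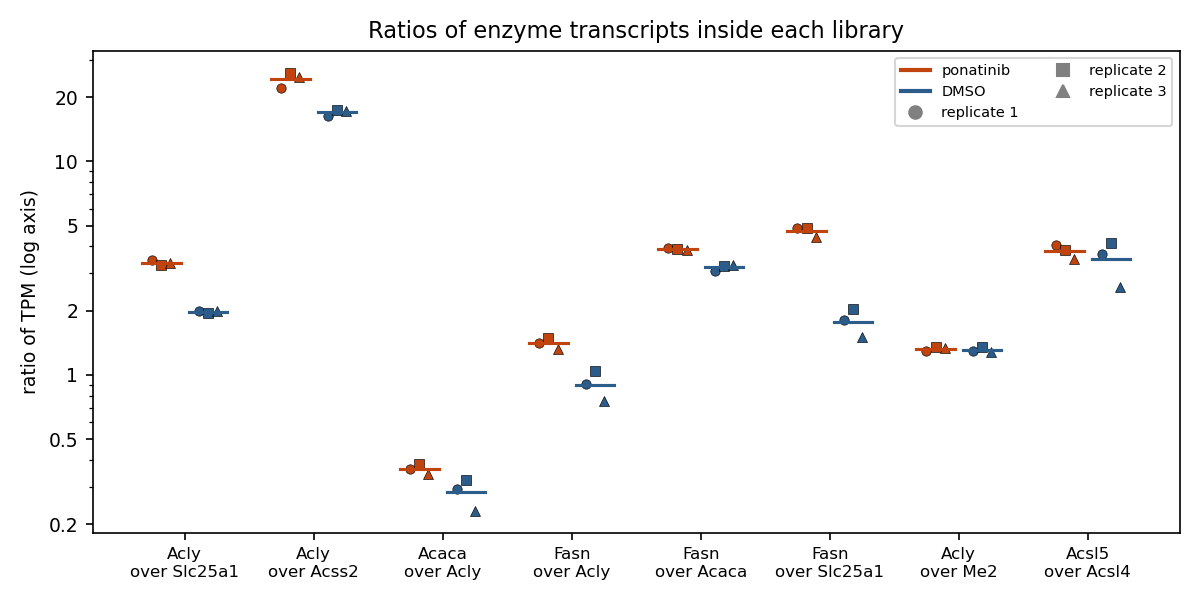
Ratios of TPM between enzyme genes inside each library on a log axis, ponatinib left of DMSO, with group means as lines. Fasn over Acly, Acaca and Slc25a1 and Acly over Slc25a1 are higher with ponatinib without overlap, and Acly over Me2 and Acsl5 over Acsl4 overlap.

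The order of levels, which TPM allow because they are per length, differed at the top. With ponatinib Fasn came first in all 3 libraries, above Acsl5, Acly, Me2, Acaca, Slc25a1, Acsl4, Acss2, Me1 and Acacb in that order of means. The neighbours Slc25a1 and Acsl4 overlapped, at 33.6 to 37.3 and 31.3 to 37.6 TPM. With DMSO the order of means was Acly, Acsl5, Fasn, Me2, Slc25a1, Acaca, Acsl4, Acss2, Acacb and Me1. Acly lay above Acsl5 in all 3 DMSO libraries, although in DMSO replicate 2 Fasn was above both. There Acsl5 and Fasn overlapped, as did Fasn and Me2, Acaca and Acsl4, and Acacb and Me1. Slc25a1 lay above Acaca in all 3 DMSO libraries and below it in all 3 ponatinib libraries in the gene rows, but with transcript rows added Acaca totalled more than Slc25a1 in both groups on average, at 87.3 against 36.1 TPM with ponatinib and 81.2 against 69.3 TPM with DMSO.

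The 10 genes together summed to 632 ± 20.5 TPM with ponatinib and 644 ± 15.5 TPM with DMSO, a difference within the spread. Fasn made up 27.0% ± 1.11 of that sum with ponatinib and 19.0% ± 2.34 with DMSO, and Slc25a1 5.70% ± 0.173 and 10.7% ± 0.320 (SD, n = 3 each). Acsl5 held 20.5% ± 0.419 and 19.8% ± 0.455.

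By Pearson correlation of log2(TPM + 1) over the 6 libraries, the rows most like Fasn were Insl6, Trav4d-4, Raver1, Cluap1 and Txn2, with r from 0.989 to 0.992. Txn2, which encodes mitochondrial thioredoxin, was at 227, 239 and 237 TPM in ponatinib libraries and 181, 201 and 162 TPM in DMSO libraries. Those most like Acly were Gpr160, Tmem259, Cables1, Plscr1 and Tbcd, with r from 0.994 to 0.997. The 6 libraries fall into 2 treatment groups and share their scaling, so such values describe likeness and no more.

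Around the 10 enzymes, 140 genes in 11 lists of the wider pathway were followed with the same limma fit, of which 122 were kept. The lists were chosen with earlier results of these data known, among them lower lipid synthesis genes. Counts and p-values of lipid genes below, Srebf1 included, are therefore descriptions and give no independent support. Among all kept gene rows 33.4% were called, 23.9% higher and 9.54% lower, shares to set beside each list count below. A list count near them is no result about the list. Of the 122 kept list genes 49 were called, 34 lower and 15 higher, with a median log2 fold change of -0.06. Scaled by medians of ratios, 43 were lower and 7 higher, and after quantile normalization 42 and 9. The number higher varied with the library left out, at 25 without DMSO replicate 3 and at 6, 5 and 4 without DMSO replicate 1, ponatinib replicate 2 and ponatinib replicate 3. Over all kept genes it was 3534, 1503, 1406 and 1345 in those fits, against 2398 with all 6 libraries. Each such fit has 1 library fewer, so a call can be lost with little change in the fold change.

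Among 12 genes of citrate supply and interconversion, mitochondrial and cytosolic, 2 fell and 0 rose (5 lower and 0 higher at an unadjusted p under 0.05), with a median of -0.06. Pcx, pyruvate carboxylase, fell to 4.44 ± 0.342 TPM with ponatinib, against 7.02 ± 0.636 TPM with DMSO (log2 fold change -0.56, SE 0.10, limma adjusted p = 0.00504). Idh1, the cytosolic isocitrate dehydrogenase, fell to 2.37 ± 0.509 TPM, against 4.46 ± 0.459 TPM (limma adjusted p = 0.00734), while Cs, citrate synthase, was at 189 ± 5.88 and 192 ± 7.39 TPM and did not pass (limma adjusted p = 0.783). The number lower was 4 without DMSO replicate 3, 5 with either other scaling and 1 with a minimum of 10 TPM.

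For NADPH, which Fasn consumes, 3 of 8 kept genes fell and 2 rose. In the pentose phosphate pathway Pgls fell to 105 ± 4.07 TPM with ponatinib, against 144 ± 6.61 TPM with DMSO (limma adjusted p = 0.00108), and Pgd to 147 ± 11.7 TPM, against 190 ± 15.4 TPM (limma adjusted p = 0.0100). G6pdx, which opens that pathway, had a log2 fold change of -0.14 (limma adjusted p = 0.1003), and passed without DMSO replicate 3 (0.0409) and with either other scaling (0.0437 and 0.0399). The folate enzyme gene Mthfd1 rose by 0.24 (limma adjusted p = 0.0114), a call lost with either other scaling and without ponatinib replicate 2 or 3 (0.158, 0.0957, 0.0519 and 0.0514). No gene of this list was called higher without ponatinib replicate 2 or 3 or with either other scaling, and 1 was without DMSO replicate 1 or ponatinib replicate 1.

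Among 15 kept genes that control SREBP and ChREBP, 4 fell and 2 rose, with a median of 0.04. Srebf1 fell to 26.1 ± 1.85 TPM with ponatinib, against 40.2 ± 1.20 TPM with DMSO (log2 fold change -0.60, SE 0.07, limma adjusted p = 8.67e-04). Fasn was higher, while Slc25a1, Acly and Acss2 were lower as Srebf1 was. SREBP1 protein was not measured, and its part in the levels of these genes was not tested. Srebf2 fell to 104 ± 5.13 TPM with ponatinib, against 134 ± 2.03 TPM with DMSO (-0.36, SE 0.05, limma adjusted p = 0.00207). Mid1ip1, whose protein promotes the joining of acetyl-CoA carboxylase into active filaments, fell to 25.2 ± 2.39 TPM, against 43.7 ± 6.10 TPM (-0.77, SE 0.11, limma adjusted p = 0.00206). Scap and Insig1, which escort and retain SREBP, did not pass the test, with log2 fold changes of 0.10 and -0.20 (limma adjusted p = 0.366 and 0.370). Every exclusion of 1 library left 4 of these genes lower, but 1 higher without DMSO replicate 1 or ponatinib replicate 2 or 3 and with either other scaling, and the median was -0.05 with medians of ratios.

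AMPK inhibits acetyl-CoA carboxylase by phosphorylation. Of 8 kept genes of the kinase and its activators, 4 rose and 0 fell (5 higher and 0 lower at an unadjusted p under 0.05), namely the subunit genes Prkaa1, Prkag1, Prkab1 and Prkag2, with log2 fold changes of 0.29, 0.20, 0.28 and 0.36 and limma adjusted p of 0.0208, 0.0208, 0.0360 and 0.0439. The count was 0 without DMSO replicate 1 or ponatinib replicate 2 or 3, 2 without DMSO replicate 2 or ponatinib replicate 1, and 6 without DMSO replicate 3. It was 1 under medians of ratios and 2 after quantile normalization or with no filter.

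Cofactor genes had 2 members higher and 1 lower of 12. Slc5a6, a carrier of the carboxylases' biotin and of pantothenate, was at 7.78, 9.73 and 9.19 TPM in ponatinib libraries and 5.94, 5.46 and 3.52 TPM in DMSO libraries, without overlap (log2 fold change 0.75, SE 0.17, limma adjusted p = 0.0125), a call lost without ponatinib replicate 2 or 3 (0.0509 and 0.0523). Hlcs, which attaches biotin to the carboxylases, and Aasdhppt, which loads the pantetheine arm of fatty acid synthase, did not pass, with log2 fold changes of 0.03 and 0.09 (limma adjusted p = 0.822 and 0.342). Single libraries moved the number higher between 0, without ponatinib replicate 2 or 3, and 4, without DMSO replicate 3; it was 1 without DMSO replicate 1 or 2 or ponatinib replicate 1, and the number lower was 0 without ponatinib replicate 1, 2 or 3.

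Beside Acsl4 and Acsl5, of 14 kept genes that activate, bind or release acyl chains 4 fell and 1 rose. Acsl3, the synthetase of the endoplasmic reticulum and lipid droplets, fell to 7.98 ± 1.26 TPM with ponatinib, against 14.2 ± 0.701 TPM with DMSO (log2 fold change -0.77, SE 0.11, limma adjusted p = 0.00206), and Acsl1 was at 5.27 ± 0.108 and 4.30 ± 0.149 TPM (limma adjusted p = 0.0575, and 0.0418 without DMSO replicate 3). The number higher was 4 without DMSO replicate 3 and 0 without each of the other 5 libraries in turn.

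Past palmitate, 6 of 12 kept desaturation and elongation genes fell and 2 rose, counts that held under all 14 alternatives. Scd1 was at 0.747, 1.12 and 1.78 TPM in ponatinib libraries and 46.8, 38.6 and 42.4 TPM in DMSO libraries (limma adjusted p = 2.15e-05). Of 13 kept glycerolipid and droplet genes, 6 fell and 0 rose (6 lower and 0 higher at an unadjusted p under 0.05), and 2 were higher without DMSO replicate 3. Among those that fell were Hilpda (log2 fold change -1.58, limma adjusted p = 7.21e-04) and Dgat1, which makes triglyceride, by 0.78 (limma adjusted p = 0.00181). Lower lipid synthesis genes were known when these lists were drawn up, so their counts and p-values are descriptions only. Of 15 kept fatty acid oxidation genes, 6 fell and 1 rose, but 2 fell without DMSO replicate 1 or ponatinib replicate 2 or 3 and 3 without ponatinib replicate 1. The 1 higher, Hadhb, was lost without DMSO replicate 1 or ponatinib replicate 3 and with medians of ratios. Cpt1a, which malonyl-CoA inhibits, did not pass, with a log2 fold change of -0.14 (limma adjusted p = 0.224).

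The mitochondrial pathway of fatty acid synthesis had 1 of 8 kept genes lower, Acsf3 (-0.28, limma adjusted p = 0.0301), and 0 higher (1 lower and 0 higher at an unadjusted p under 0.05), and the call was lost without DMSO replicate 2 or ponatinib replicate 1, 2 or 3. Of 5 kept genes of other acetyl-CoA enzymes, 1 rose and 1 fell. Acss1, the mitochondrial counterpart of Acss2, rose to 5.78 ± 0.676 TPM with ponatinib, against 3.60 ± 0.472 TPM with DMSO (log2 fold change 0.56, SE 0.12, limma adjusted p = 0.00990), opposite to Acss2. The cytosolic thiolase Acat2 fell by 0.39 (limma adjusted p = 0.00649).

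**Figure D5:**
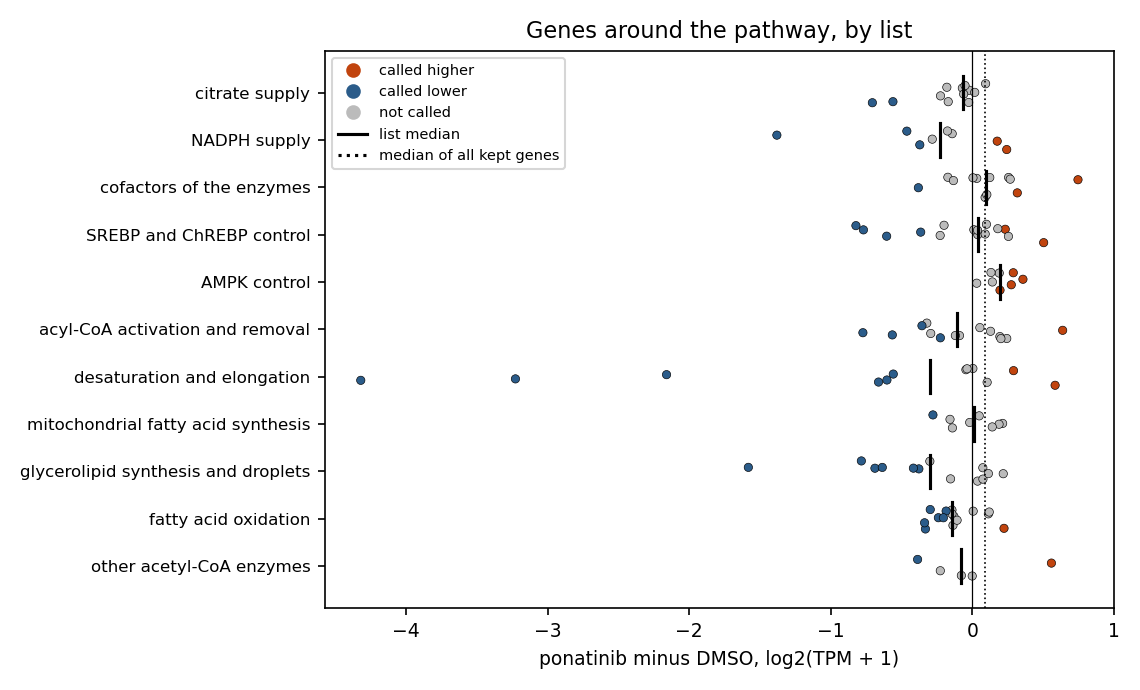
Log2 fold changes on log2(TPM + 1), ponatinib minus DMSO, of the 122 kept genes in 11 lists around the enzymes, with 1 point per gene, list medians as bars and the median of all kept genes dotted. Desaturation and glycerolipid genes reach farthest to the lower side, and the AMPK list has a median of 0.19.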

How the data were processed

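Total RNA of the 6 samples had been extracted with RNeasy Plus Micro columns and made into libraries with a NEBNext Ultra II RNA kit, per the labels' protocols, which do not give strand. The deposited table is named for normalized counts, but each of its columns adds up to 1000000, so the deposited values were treated as TPM. Per the submitters' processing notes, fastp 0.19.5, Salmon 1.5.1, DESeq2 1.22.1 and build GRCm38 were used, without their roles. The annotation release and any row filter are not given in the sources used here. Reads per library are unknown because TPM keep no depth, so no counting interval is given; the median SE of a log2 fold change was 0.09.

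The table held 22095 gene rows and 20977 transcript rows, which carried 6.76% to 7.10% of TPM. Names came from GENCODE mouse release M21 by identifiers without version (22011 and 20793 found); versions matched in 11 rows, so the authors' annotation was another. Gene rows with a mean of at least 1 TPM were compared on log2(TPM + 1), which understates changes of low genes, with limma 3.58.1 (eBayes with trend, two-sided) in R 4.3.3. Where a symbol had several identifiers, the one with the higher mean was used. The 14 alternatives were other row, pseudocount, filter, scaling, block and empirical Bayes choices and each library left out. The members, lists and tests were chosen with earlier results of these data known. Named genes were the 10 enzymes, 14 set genes, the 5 rows most like Fasn and Acly, and some of the up to 4 called genes of each list with the smallest p. Not all of these called genes are named, and which were left out followed no fixed rule. Others are said to be chosen by position or with values known. Protein sequences were not used here.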

Additional observations from a re-analysis of the deposited data

How the results depend on the processing

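Leaving out 1 library moved the number of genes called higher between 1345 and 3534, against 2398, and lower between 626 and 1011, against 958. For the genes of the 11 lists together the range was 4 to 25 higher, against 15, and 26 to 36 lower, against 34. With medians of ratios the calls came to 1500 higher and 1552 lower, and with quantile normalization to 1719 and 1446, so that 49.1% and 54.3% of calls were higher, in place of 71.5%. In the lists 7 were higher with the first scaling and 9 with the second. The median log2 fold change of all kept genes was then 0.0047 and 0.02, against 0.09. Slc25a1 and Acss2 were called under every alternative that kept them and Acaca, Acsl4 and Acsl5 under none; their ranges were -1.01 to -0.87, -0.67 to -0.56, 0.08 to 0.29, -0.23 to 0.04 and -0.07 to 0.05. With transcript rows added, Pank2, a list gene at 0.01 in gene rows, was called lower at -0.22; the cause was not tested. Whether the replicate numbers pair the libraries could not be settled here. Over kept genes, same-numbered libraries' deviations from their group means correlated at -0.03, 0.06 and 0.01. Such values cannot exclude pairing that shows in some genes. The replicate block gave 2300 higher and 922 lower genes and 13 and 35 in the lists. It lowered the SE of Fasn from 0.10 to 0.06 and of Acsl4 from 0.14 to 0.09, and slightly raised those of Acss2 and Acsl5. TPM carry no depth, so low genes such as Acacb and Me1 have no stated counting error.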
